A study of Mus musculus with 6 samples.

Results

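The proteasome genes were read here as the 49 genes whose single gene symbol begins with Psma, Psmb, Psmc, Psmd, Psme, Psmf or Psmg followed by a number. They are 49 of 18193 genes and carry 103 of the 34945 probe sets with exactly 1 symbol. The cells were C2C12, a mouse myoblast line that stops dividing in suspension and can fuse into myotubes. The knockdown cells were a stable pool transfected with PRDM2 shRNA (PRDM2 KD S48, 3 arrays), where Prdm2 encodes a nuclear protein of the PR domain family of zinc fingers. The control cells were a stable pool transfected with control GFPshRNA (GFP S48, 3 arrays). Both pools had been held for 48 hours in methylcellulose suspension with 20% fetal calf serum to bring them into G0, and total RNA was hybridised to Affymetrix arrays. The labels call the arrays of a group biological replicates of 1 stable pool, so p-values measure the spread between these arrays and not between separate transfections.

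The proteasome degrades proteins that carry ubiquitin chains. Its 20S core is a barrel with outer rings of alpha subunits, which gate the entrance, and inner rings of beta subunits, of which Psmb5, Psmb6 and Psmb7 carry the cutting sites. The 19S cap binds ubiquitin chains, removes them and uses a ring of ATPases to unfold the substrate. In muscle the proteasome breaks down sarcomere proteins during atrophy, with the ligases Trim63 and Fbxo32 among those that mark them. Assembly chaperones build the core and the cap, and alternative beta subunits replace the constitutive ones after interferon or in the thymus.

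In RefSeq promoter windows of the GRCm38.p6 assembly, which run over 300 bases from before to just after a gene's start, 41 of the 49 genes matched and had 44 windows between them. A set of 5 short motifs was searched on both strands, with overlapping matches counted, and the set was chosen with these shares in view. CCGGAAG, the core bound by ETS factors, was in 17 of the 44 windows (38.6%), against 8.86% of all 32851 windows and 18.6% of the 7694 windows of genes with a mean intensity of at least 50. GAAA followed after 2 free bases by another GAAA, a repeat of the kind read by interferon regulatory factors, was in 5 windows (11.4%), those of Psmb3, Psmd4, Psmd9, Psme1 and Psmg4, against 3.44% of all windows. CCAAT, the box bound by NF-Y, was in 36.4% of the proteasome windows and 37.4% of all windows. TGACNNNGC, the core of the antioxidant response element read by Nfe2l1 and Nfe2l2, was in 13.6% of the proteasome windows and 12.4% of all windows. CAGCTG, an E-box of the kind MyoD binds, was in 6.82% of the proteasome windows and 16.3% of all windows. A match is a string of letters in a window and was not measured as a binding site.

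Windows of 3 subunit genes are printed 5′ to 3′ with the matches in capitals, including those read on the opposite strand. One of the 2 windows of Psma6, an alpha subunit, is shown (chr12:55398575-55398874, plus strand). It holds 3 matches to CCGGAAG, while the other (chr12:55383972-55384271, plus strand) holds 0. The window of Psmc3ip, which is not printed, also holds 3. The Psmd14 window (the cap's deubiquitinase, the gene with the smallest p of the 49, chr2:61711444-61711743, plus strand) holds 3 matches to CCAAT, 2 of which overlap. The Psme1 window (an interferon-responsive activator, chr14:55578244-55578543, plus strand) holds 1 match to the GAAA repeat on the minus strand.
Psma6: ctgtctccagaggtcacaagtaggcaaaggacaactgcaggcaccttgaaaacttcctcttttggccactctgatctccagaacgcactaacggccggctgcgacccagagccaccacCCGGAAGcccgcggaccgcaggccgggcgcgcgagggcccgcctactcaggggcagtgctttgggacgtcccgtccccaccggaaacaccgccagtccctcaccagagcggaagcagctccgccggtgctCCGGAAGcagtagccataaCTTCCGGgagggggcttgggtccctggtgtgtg
Psmd14: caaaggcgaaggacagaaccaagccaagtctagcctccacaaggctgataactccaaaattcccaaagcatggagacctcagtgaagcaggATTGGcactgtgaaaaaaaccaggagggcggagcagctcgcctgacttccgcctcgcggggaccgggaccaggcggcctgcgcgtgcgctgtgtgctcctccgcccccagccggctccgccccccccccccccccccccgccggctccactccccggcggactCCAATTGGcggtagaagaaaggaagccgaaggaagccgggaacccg
Psme1: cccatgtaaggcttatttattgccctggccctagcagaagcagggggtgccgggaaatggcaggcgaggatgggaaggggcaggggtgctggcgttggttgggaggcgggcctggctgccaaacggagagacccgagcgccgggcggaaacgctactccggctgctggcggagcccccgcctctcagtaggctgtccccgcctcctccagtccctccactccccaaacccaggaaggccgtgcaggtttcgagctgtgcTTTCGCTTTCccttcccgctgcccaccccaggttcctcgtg

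Prdm2 itself had 3 probe sets, and none passed the test. One read 58.0, 51.5 and 29.0 on the PRDM2 knockdown arrays and 86.2, 73.6 and 47.1 on the GFP control arrays, with a log2 difference of -0.51 (limma adjusted p = 0.44 in the fit of all probe sets). Another read 20.4, 47.0 and 45.1 in the knockdown and 41.5, 117 and 60.7 in the control, a difference of -0.75 (limma adjusted p = 0.475). The remaining one was under 10 on every array and stood at 0.10. Differentiation markers separated the groups far more. By limma at an adjusted p under 0.05, 9 of 10 muscle genes were higher in the knockdown and 7 of 7 proliferation genes were lower. Markers of undifferentiated myoblasts were mixed. Of 8, 2 were higher (Vcam1 at 2.36 and Itga7 at 0.63), 1 was lower (Myf5 at -1.29) and 5 did not pass. Itga7 missed the threshold under 14 of 18 alternative settings. Over all genes, 5.15% passed in either direction. The summed intensity of the muscle list was 9415 to 11574 on knockdown arrays and 295 to 577 on control arrays. Of 11 leukocyte markers 0 passed, with list sums of 128 to 165 on knockdown arrays and 162 to 281 on control arrays, and 6 of the 11 were negative. Ptprc lay between 0.721 and 2.49 on the knockdown arrays and between 0.575 and 1.68 on the control arrays. Csf1r, the leukocyte marker with a mean intensity of at least 50, read 58.0, 89.8 and 37.9 in the knockdown and 150.2, 86.9 and 103 in the control, a difference of -0.82 (limma adjusted p = 0.209). Array GFP 3 stood apart in RNA quality, with a Gapdh 5' to 3' ratio of 0.0992, against 0.704 to 1.14 on the other arrays. The arrays numbered 3 in both groups gave less signal for the Dap labelling spike, at 21.2 and 16.1 for the knockdown and the control, against 93.1 to 161 on the other arrays.

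No proteasome gene passed the test. Changes were fitted on log2(intensity + 16) after quantile normalization over all 18193 genes, and 0 of 49 proteasome genes had a limma adjusted p under 0.05, against 5.15% of all genes and 7.7% of the 7315 genes with a mean intensity of at least 50. The smallest adjusted p was 0.114, for Psmd14. At an unadjusted p under 0.05 there were 2 of 49, Psmd14 and Psma7, against 15.8% of all genes. The deposited values of the groups did not overlap for 5 of 49 genes (Psma1, Psma7, Psmd10, Psmd14 and Psmg2), against 21.1% of all genes. At the level of probe sets the result was 0 of 103, against 2.43% of all 45037 probe sets, with a smallest adjusted p of 0.168. At an unadjusted p under 0.05 there were 5 of the 103, against 11.7% of all probe sets.

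The fitted differences were small in size as well. They ran from -0.51 to 0.40 on the log2 scale with a median of -0.03, beside a median of -0.004 over all genes, and 30 of 49 were negative (61.2%, against 51.0% of all genes). Among the 43 proteasome genes with a mean intensity of at least 50, the median absolute difference was 0.12, beside 0.22 over all 7315 such genes. The 95% interval of the difference lay within a 2-fold change in either direction for 40 of these 43 genes (93.0%, against 79.8% of all genes of that intensity). It lay within a 1.5-fold change for 25 of 43 (58.1%, against 37.7%), so for the other genes a difference of that size was not resolved by 3 arrays a group. Psma4, Psmb2 and Psmc4 were the 3 genes whose interval reached a 2-fold change. Replicates of the 43 genes were also close, with a median coefficient of variation of 12.8% in the knockdown and 13.6% in the control, beside 16.1% in the knockdown and 19.8% in the control over all genes of that intensity. Array values are given as deposited and differences after normalization, so the sign of a small difference can oppose the deposited means. That was so for 5 of the 49 genes (Psma6, Psmb5, Psmc5, Psmc6 and Psme1), all with a negative difference and a higher deposited mean in the knockdown.

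**Figure D1:**
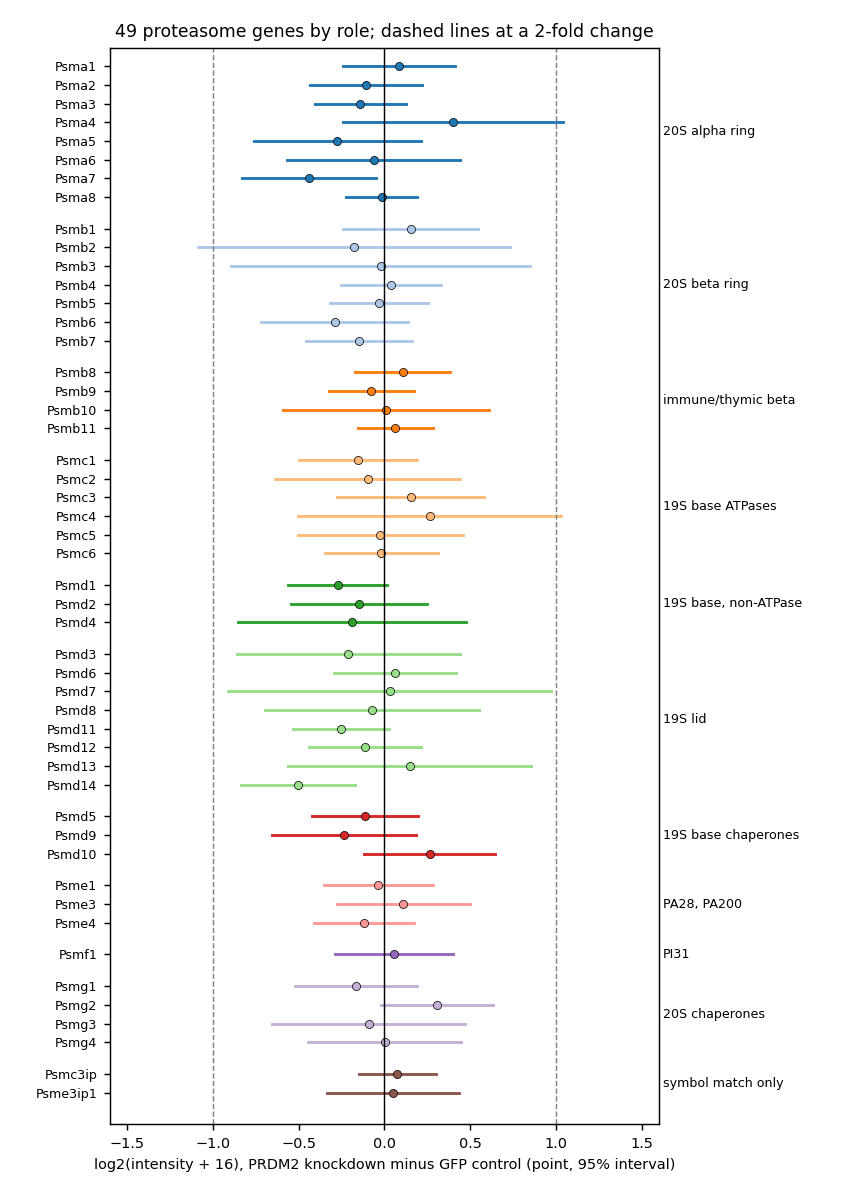
Difference in log2(intensity + 16) between PRDM2 knockdown and GFP control for each of the 49 proteasome genes, grouped by role. Points are fitted differences and bars their 95% intervals, with dashed lines at a 2-fold change. All points lie between -0.51 and 0.40, and the bars of Psma4, Psmb2 and Psmc4 reach a dashed line.

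**Figure D2:**
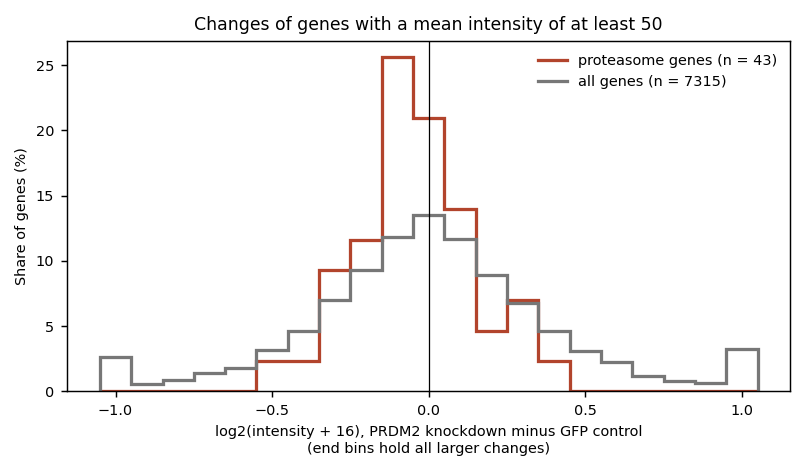
Share of genes, in percent, by their difference in log2(intensity + 16), PRDM2 knockdown minus GFP control, for the 43 proteasome genes and all 7315 genes with a mean intensity of at least 50. The end bins hold all larger changes. The proteasome genes gather near 0, with a median absolute difference of 0.12 beside 0.22 over all genes.

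The 8 alpha ring genes had a median difference of -0.08, with 2 positive and 6 negative. Psma7, the alpha4 subunit, read 343, 474 and 432 on the knockdown arrays and 526, 527 and 538 on the control arrays. All 3 knockdown values lay below all 3 control values, and the difference of -0.44 (SE 0.164, 95% interval -0.83 to -0.05) had a limma adjusted p of 0.249. Its other probe set gave -0.33 with groups that overlapped, so the 2 probe sets had the same sign. Psma4, the alpha3 subunit whose tail helps close the gate, read 301, 520.3 and 509.8 on the knockdown arrays and 298, 432 and 218 on the control arrays. Its groups overlapped, and the interval of -0.24 to 1.04 around 0.40 was the widest of the ring. Psma1, the alpha6 subunit, read 364, 447 and 401 in the knockdown and 344, 364 and 364 in the control, which just separated the groups at a difference of 0.08 (-0.24 to 0.41). Psma8, the testis form of Psma7, was at 0.485 to 1.65 on the knockdown arrays and at 0.997 to 1.47 on the control arrays, under the offset of 16.

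The 7 constitutive beta ring genes had a median of -0.03, with 2 positive and 5 negative. Psmb5, the chymotrypsin-like site and the main target of proteasome inhibitors, read 516, 508 and 521 on the knockdown arrays and 524, 469 and 495 on the control arrays. These values overlapped. The deposited mean was higher in the knockdown, at 515 against 496 in the control, while the difference after normalization was -0.03 (-0.32 to 0.25). Psmb6, the caspase-like site, read 539, 565 and 536 in the knockdown and 688, 528 and 709 in the control. Control arrays 1 and 3 lay above the knockdown and control array 2 lay below it, with a difference of -0.29 (-0.72 to 0.14). Psmb7, the trypsin-like site, read 609, 636 and 744 in the knockdown and 746, 721 and 649 in the control, a difference of -0.15 (-0.45 to 0.16). The structural subunit Psmb1 was the most positive of the ring at 0.15 (-0.24 to 0.55), with 1029, 1115 and 948 in the knockdown and 1050.0, 745 and 909 in the control. Psmb2 spread so widely within both groups, over 141 to 340.0 in the knockdown and 129.6 to 392 in the control, that its interval ran from -1.09 to 0.73.

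The alternative beta subunits are described separately because interferon induces 3 of them. Psmb8, which replaces Psmb5, read 29.7, 33.2 and 35.9 on the knockdown arrays and 28.8, 26.7 and 29.8 on the control arrays. The lowest knockdown array was just below the highest control array, and the difference was 0.11 (-0.17 to 0.38). The name of this probe set ends in _x, which marks probes shared with other transcripts. Its other probe set was under the offset of 16 on every array, at 7.63 to 11.7 in the knockdown and 8.88 to 10.3 in the control. The difference there was 0.01. Psmb10, which replaces Psmb7, read 73.3, 73.5 and 90.3 in the knockdown and 62.3, 58.6 and 104 in the control, a difference of 0.01 with a wide interval of -0.59 to 0.61. Psmb9, which replaces Psmb6, was under 5 on every array, at 4.02, 0.834 and 1.85 in the knockdown and 4.03, 3.09 and 2.51 in the control. The thymic subunit Psmb11 was likewise at 2.12 to 4.18 in the knockdown and 1.97 to 2.65 in the control, so for both genes the offset hides any change in signal at that level.

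The 6 ATPases of the cap base had a median of -0.02. Psmc4 was the most positive at 0.26, and read 495, 334 and 305 on the knockdown arrays and 332, 187 and 376 on the control arrays. Its direction was not shared by the array sets, at 0.67 on the 4 arrays with more spike signal and -0.54 on the 2 with less. Psmc1 was the most negative at -0.15 (-0.50 to 0.19), with 226, 294 and 258 in the knockdown and 257, 284 and 269 in the control. The scaffold subunits Psmd1 and Psmd2 and the ubiquitin receptor Psmd4 were all negative, with a median of -0.19, and none passed. Psmd1 read 371, 417 and 419.7 in the knockdown and 437, 549.9 and 411 in the control, so that only 1 control array lay within the knockdown range. Its difference was -0.27 (-0.56 to 0.02, adjusted p = 0.357). Psmd2, at the other end of these 3 genes, read 656, 513 and 735 in the knockdown and 632, 724 and 645 in the control, a difference of -0.15 (-0.54 to 0.25).

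In the cap's lid, the 8 genes measured had a median of -0.09, with 3 positive and 5 negative. Psmd14 encodes the metalloprotease that cuts ubiquitin chains off substrates as they enter. It read 390.5, 484 and 376 on the knockdown arrays and 519, 650.0 and 516 on the control arrays. The highest knockdown array was below the lowest control array, with means of 417 ± 59.0 in the knockdown and 562 ± 76.4 in the control (SD, n = 3 each). Psmd14 had the lowest difference of the 49 genes, -0.51 (SE 0.140, 95% interval -0.84 to -0.17), and its limma adjusted p of 0.114 missed the threshold. The difference was -0.40 on the arrays with more spike signal and -0.71 on the pair with less. Over 18 alternative settings, some of which cannot move a difference, it stayed between -0.61 and -0.38 with limma adjusted p-values of 0.0933 to 0.466. Only 1 probe set represents the gene, so no second reading is available from these arrays. At the other end of the lid, Psmd13 read 183, 179 and 262 in the knockdown and 135, 148 and 245 in the control, a difference of 0.15 (-0.56 to 0.85).

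**Figure D3:**
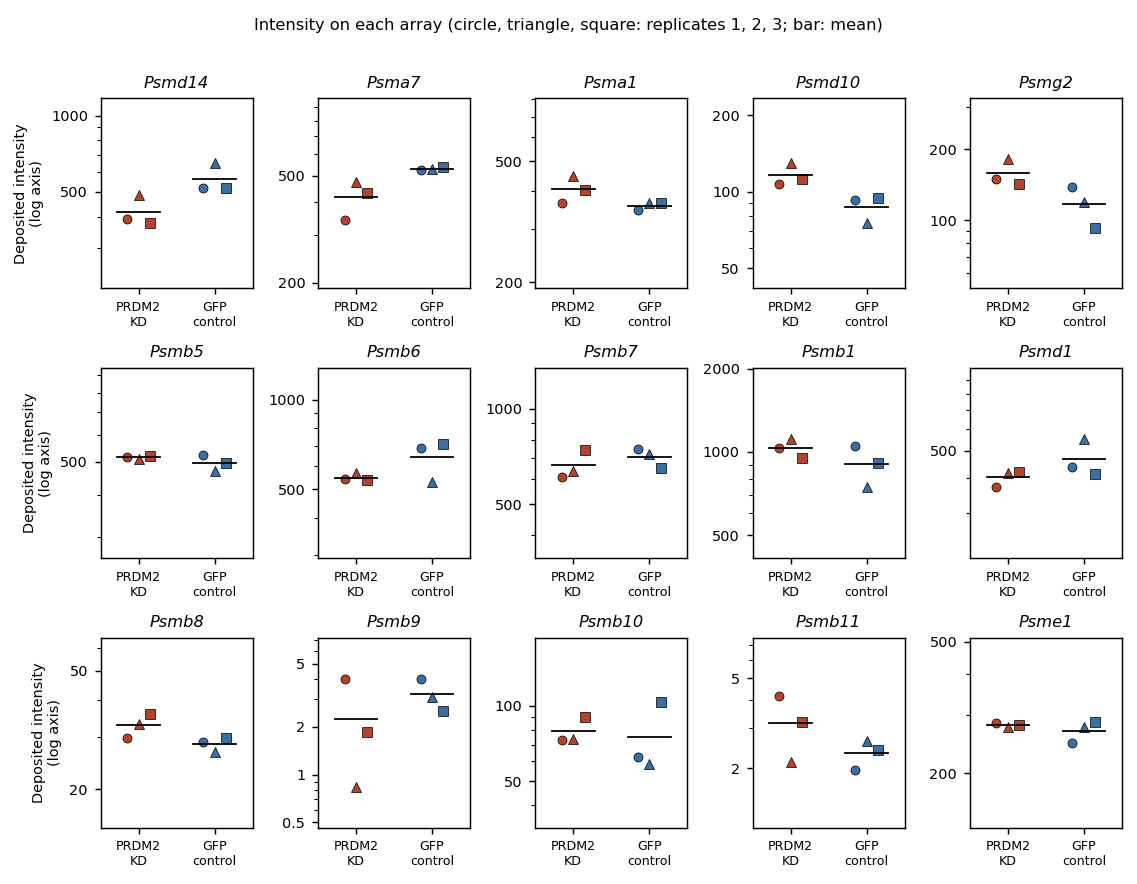
Deposited intensity on each array, on log axes, for 15 proteasome genes, with the 3 PRDM2 knockdown arrays left of the 3 GFP control arrays and bars at the group means. The top row holds the 5 genes whose groups do not overlap, the middle row the catalytic beta subunits with Psmb1 and Psmd1, and the bottom row the interferon-induced and thymic beta subunits with Psme1. For Psmd14 the knockdown arrays sit at 376 to 484 and the control arrays at 516 to 650.0.

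Among the assembly factors, Psmg2 and Psmd10 had higher values on every knockdown array than on any control array, and neither passed. Psmg2, which pairs with Psmg1 to seed the alpha ring, read 149, 182 and 142 in the knockdown and 138, 119 and 93.1 in the control. Its difference was 0.30 (-0.02 to 0.63, adjusted p = 0.36). Psmd10, the chaperone gankyrin that escorts an ATPase, read 107, 129 and 113 in the knockdown and 92.9, 75.2 and 94.1 in the control. Its difference of 0.26 (-0.12 to 0.65, adjusted p = 0.548) was 0.41 on the arrays with more spike signal and -0.02 on the other pair. Their partner chaperones did not separate the groups. Psmg1 read 137, 124 and 152 in the knockdown and 141, 135 and 159 in the control, a difference of -0.17 (-0.52 to 0.19). Psmg3 read 70.5, 55.9 and 66.7 in the knockdown and 58.7, 51.6 and 88.9 in the control, a difference of -0.09 (-0.65 to 0.47). For Psmg4, which works with Psmg3, the fitted difference was 0.00 (-0.45 to 0.45). Psmd9, another base chaperone, read 30.7, 33.4 and 39.1 in the knockdown and 29.2, 50.4 and 47.4 in the control, a difference of -0.24 (-0.65 to 0.18).

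The activators that can replace the cap also overlapped between groups. Psme1, the alpha subunit of PA28, read 285, 276 and 281 in the knockdown and 247, 277 and 285 in the control. The deposited mean was higher in the knockdown, and the difference after normalization was -0.03 (-0.35 to 0.28). Psme3, the nuclear PA28 gamma, read 66.1, 69.6 and 69.5 in the knockdown and 56.4, 51.3 and 68.4 in the control, a difference of 0.11 (-0.28 to 0.50). Psme4, or PA200, read 491, 516 and 455 in the knockdown and between 475 and 521 on the control arrays, a difference of -0.12 (-0.41 to 0.17). The probe set for Psme2 carries a second symbol and was therefore not among the 49 genes. Psmf1, the regulator PI31, read 57.8, 48.8 and 55.8 in the knockdown and 55.9, 41.7 and 48.4 in the control. The difference was 0.06 (-0.29 to 0.40). Its other probe sets had mean intensities under 50 and stood at 0.33, 0.23 and 0.18. In the limma fit of all probe sets their unadjusted p-values were 0.0316, 0.0472 and 0.373, and none passed after adjustment. The symbol rule also took in Psmc3ip, a meiotic recombination factor, and Psme3ip1, which binds PA28 gamma, and neither is a subunit. Psmc3ip read 22.8, 19.4 and 20.9 in the knockdown and 19.5, 21.7 and 16.8 in the control. Without this pair the median over 47 genes was -0.06, again with 0 passing.

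Different probe sets give further readings of a gene, and whether they read the same transcript was not tested. Of the 49 genes, 27 had more than 1 probe set, and 16 had at least 2 with a mean intensity of at least 50. Within these 16 genes the probe sets had the same sign for 10 and opposite signs for 6, and the highest and lowest differences of a gene were a median of 0.14 apart. The gap was widest for Psme4 (0.51) and for Psmd11 (0.50), a lid subunit. A Psme4 probe set read 45.9, 85.3 and 106 in the knockdown and 47.0, 136 and 16.5 in the control, a difference of 0.39 with an interval of -0.93 to 1.70. Its control array 3 was the lowest of the 6, and the same held for a second Psmg2 probe set, at 80.3, 144 and 113 in the knockdown and 78.9, 120.2 and 19.4 in the control. Of the 4 Psmd11 probe sets of that intensity, 3 were negative, at -0.25, -0.33 and -0.38, and the remaining one was at 0.13. Of the 103 probe sets, 14 have a name ending in _s or _x, which marks probes shared with other transcripts, and 5 of these represent their gene.

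**Figure D4:**
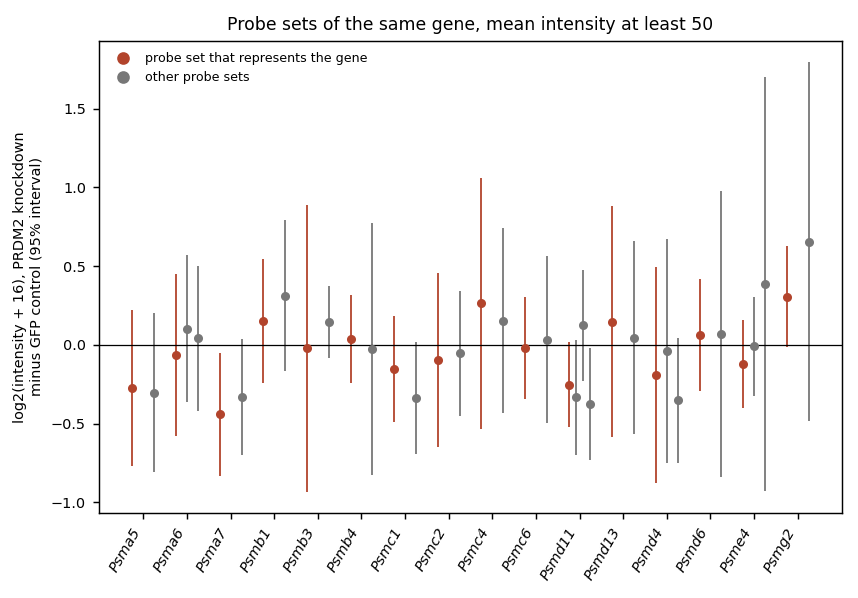
Difference in log2(intensity + 16), PRDM2 knockdown minus GFP control, for each probe set of the 16 proteasome genes with at least 2 probe sets of mean intensity 50 or more. Points are fitted differences and bars 95% intervals, in red for the probe set that represents the gene and in grey for the others. The points of a gene lie a median of 0.14 apart, and at most 0.51 for Psme4.

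Array GFP 3, which had the low Gapdh ratio, was the highest of the 6 arrays for 27 of 49 proteasome genes after normalization and for 8 of 49 on the deposited values. Over all genes with a mean intensity of at least 50 it was the highest for 27.0% after normalization. Relative to the mean of the control arrays, the median of the 43 proteasome genes on normalized values was -0.13, -0.02 and 0.01 on knockdown arrays 1 to 3 and -0.06, -0.12 and 0.22 on control arrays 1 to 3. On deposited values it was -0.02, 0.05 and 0.07 in the knockdown and 0.02, -0.02 and 0.03 in the control, while all genes of that intensity stood at -0.12 on control array 3. The median over the 49 genes stayed near 0 and did not keep its sign. It was -0.03 after quantile normalization, beside -0.004 over all genes, -0.002 without normalization, beside 0.01, and 0.04 after median scaling, beside 0.03. With quantile normalization kept, it was 0.04 on the 4 arrays with more spike signal and -0.20 on the arrays numbered 3. It was also 0.04 with the Gapdh ratio as a covariate, beside 0.01 over all genes, and 0.06 without array GFP 3, beside 0.02 over all genes.

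Genes that work with the proteasome but lie outside its symbols were read from 5 lists, of which 66 genes were measured. Of these 66 genes, 4 were higher in the knockdown and 0 were lower (6.06%, against 5.15% of all genes). In bulk RNA a change in the mix of cells and a change in RNA per cell cannot be told apart. Of 8 further subunits and partners, 0 passed, with a median of -0.12. Sem1, a small lid subunit, read 1029, 1091 and 1052 in the knockdown and 1343, 989 and 1311 in the control (-0.23, interval -0.66 to 0.20). Pomp, the chaperone that helps beta subunits join the core, read 469, 446 and 502 in the knockdown and 466, 430.1 and 357 in the control (0.10, interval -0.13 to 0.34).

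Of 17 genes that control proteasome genes or their activity, 2 rose and 0 fell (11.8%, against 5.15% of all genes). Foxo1, a forkhead factor that drives atrophy genes in muscle, read 553, 489 and 486 on the knockdown arrays and 170.0, 172 and 191 on the control arrays. The groups were far apart, with a difference of 1.35 (SE 0.136, adjusted p = 0.00275). The other forkhead factors of the list did not pass. Foxo3 stood at -0.46 (limma adjusted p = 0.256), opposite in sign to Foxo1, and Foxo4 at 0.03 (limma adjusted p = 0.98). Zfand5, a zinc finger protein that binds the proteasome and raises its activity, read 1284, 1321 and 1259.8 in the knockdown and 853, 952 and 704 in the control. Its rise of 0.58 (SE 0.0933) had an adjusted p of 0.017, but missed the threshold under 11 of 18 alternative settings, with adjusted p-values of up to 0.268. Among other Zfand5 probe sets, 1 at 0.67 passed in the limma fit of all probe sets (adjusted p = 0.039). Those at 1.03, 0.72, 0.34, -0.19 and -0.07 did not. Nfe2l1, the factor that restores proteasome genes after inhibition, read 201, 149.8 and 297 in the knockdown and 188, 237 and 173 in the control. Its deposited mean was higher in the knockdown, and the difference after normalization was -0.02 (-0.57 to 0.52). Its relative Nfe2l2, the oxidative stress factor, had non-overlapping groups at 602, 731 and 682 in the knockdown and 469, 587 and 367 in the control, with a difference of 0.44 and an adjusted p of 0.181. Maff, a small Maf partner of these factors, had the most negative difference of the list, -0.79 (-1.59 to 0.02, adjusted p = 0.335). Nfyb, an NF-Y subunit that binds the CCAAT box counted above, stood at -0.44 with an adjusted p of 0.227. The NF-Y subunits Nfya and Nfyc were near 0, at 0.02 and -0.03 (limma adjusted p = 0.991 and 0.966). Ngly1, with groups that did not overlap, stood at 0.50 (limma adjusted p = 0.292). Over the list 8 genes were positive and 9 negative, with a median of -0.0075.

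Of 10 muscle ubiquitin ligases, 1 rose and 0 fell (10%, against 5.15% of all genes). Over the list 7 genes were positive and 3 negative, with a median of 0.315. The negative ones were Mdm2 at -0.38, Cblb at -0.26 and Traf6 at -0.21. Trim63, or MuRF1, which marks myosin and other sarcomere proteins, read 64.1, 58.5 and 38.2 in the knockdown and 10.2, 13.1 and 3.07 in the control. Every control value was below the offset of 16, so the difference of 1.48 (SE 0.199, adjusted p = 0.00879) understates the change. Fbxo32, or atrogin-1, read 412, 806 and 408 in the knockdown and 143, 252 and 111 in the control. Its difference of 1.51 (0.73 to 2.29) had an adjusted p of 0.051 and so missed the threshold, while 2 other probe sets of the gene passed in the fit of all probe sets, at 1.99 (adjusted p = 0.00365) and 1.37 (adjusted p = 0.0082). The Trim63 and Fbxo32 values moved with the muscle list given above, and the part of differentiation in them was not tested.

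Of 10 ubiquitin-shuttling and E1 genes, 0 passed. Vcp, the segregase that pulls substrates free for the proteasome, read 1048, 1242 and 1367 in the knockdown and 1095, 1337 and 1336 in the control (-0.08, interval -0.53 to 0.38). Of 21 genes of the interferon response and of antigen processing, 1 rose and 0 fell (4.76%, against 5.15% of all genes). Erap1, which trims peptides that the proteasome makes, read 19.2, 21.4 and 23.7 in the knockdown and 10.8, 10.2 and 12.1 in the control. Its difference of 0.47 (adjusted p = 0.0457) lost its call when any 1 of the 6 arrays was left out. In the limma fit of all probe sets its adjusted p was 0.0598, and a dimmer Erap1 probe set stood at 0.34 (adjusted p = 0.37). Irf1, which induces the immune subunits, read 169, 158 and 179.8 in the knockdown and 105, 107 and 118 in the control, non-overlapping at 0.46 with an adjusted p of 0.131. Rtp4, an interferon-induced gene, stood at 0.49 (adjusted p = 0.056), and H2-K1, which presents the peptides, at 0.68 (adjusted p = 0.244). Other interferon-induced genes of the list lay in the other direction. Oasl2 lay between 8.96 and 11.6 on the knockdown arrays and between 14.3 and 16.1 on the control arrays, non-overlapping at -0.26 (adjusted p = 0.228), and Ifit3 and Gbp2 both stood at -0.25. Over the list 12 genes were positive and 9 negative, with a median of 0.04.

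**Figure D5:**
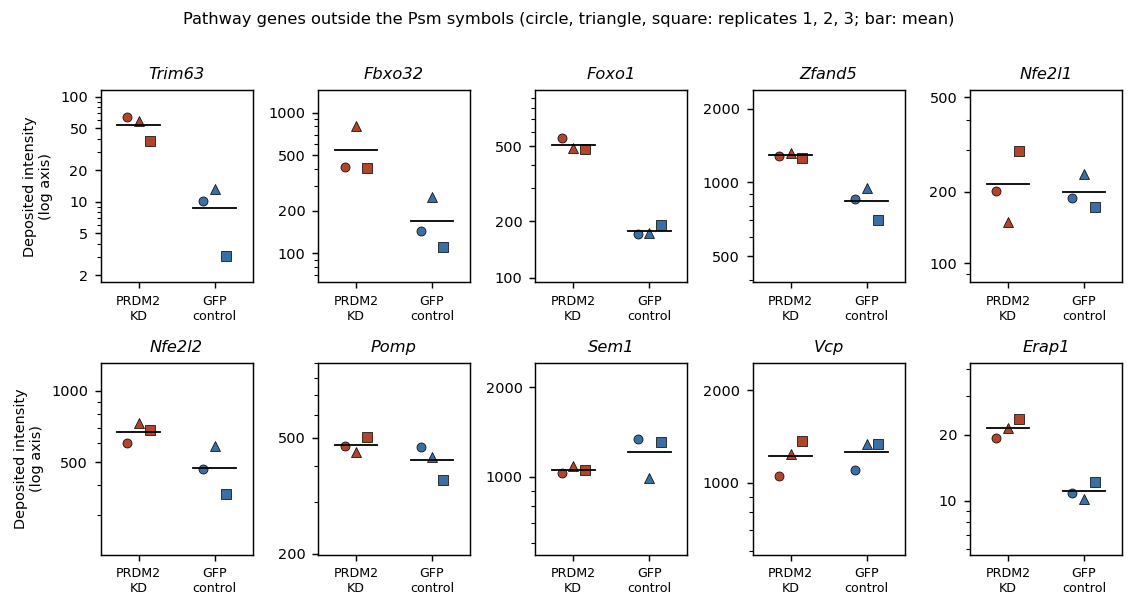
Deposited intensity on each array, on log axes, for 10 genes that work with the proteasome, with the 3 PRDM2 knockdown arrays left of the 3 GFP control arrays and bars at the group means. Foxo1 sits at 486 to 553 in the knockdown and at 170.0 to 191 in the control, and Trim63 at 38.2 to 64.1 in the knockdown and at 3.07 to 13.1 in the control. The values of Nfe2l1, Pomp, Sem1 and Vcp overlap between the groups.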

How the data were processed

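The deposited table gives a linear intensity for each of 45101 probe sets on 6 arrays. The submitters' processing notes name GCOS and PLIER; between-array scaling is not given in the sources used. Per the labels' protocols, cRNA was made from 8 µg of Trizol-extracted RNA. Intensities were transformed as log2(intensity + 16), which understates changes of dim genes, and quantile normalized. For each of 18193 genes the single-symbol probe set with the highest mean normalized value was used. All genes, and separately 45037 probe sets without 64 control probe sets, were fitted with limma 3.58.1 in R 4.3.3 (lmFit, eBayes, Benjamini-Hochberg, threshold 0.05), after testing on simulated data. Printed array values and means are deposited intensities. The genes, lists and alternatives were chosen with earlier results of these data known. Values were printed for the alternative beta subunits and their counterparts, activators, assembly factors, the extremes of each role group, and list genes that passed or lay far from 0. Further genes were named after their values were seen. Deviations of same-numbered arrays correlated at 0.34, 0.01 and 0.12, and the main fit did not pair the arrays by number. Correlations between differently numbered arrays were not computed, so whether the numbers mark pairs was not tested. The number of arrays limits the precision.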

Additional observations from a re-analysis of the deposited data

How the results depend on the processing

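Over 18 alternatives to the normalization, offset, filter, variance model, probe set choice, batch and arrays used, 0 of the 49 proteasome genes passed the limma test at any setting, and the lowest adjusted p was 0.0933. Signs were less stable: 19 genes kept theirs throughout and 30 did not. Blocks for replicate number or spike signal, the intensity filter, the intensity trend and ordinary statistics cannot move a fitted difference or its sign. With arrays left out, the list median ran from -0.13 without GFP control array 2 to 0.06 without GFP control array 3. Of the 66 genes outside the symbols, 4 passed as reported. The count was 6 with median scaling, 6 with the Gapdh ratio as a covariate and 5 without normalization. It was 1 with ordinary statistics and 2 on the 4 arrays with more spike signal. With 1 array left out, 2 to 4 passed (2 without PRDM2 knockdown array 1, knockdown array 3 or GFP control array 1). The filter at a mean intensity of at least 50 left 46 of these genes, of which 2 passed. Trim63 and Erap1 lay under this filter and were not tested with it. With the replicate number as a block, 0 proteasome genes, 3 genes outside the symbols and 718 of all genes passed. The list median stayed at -0.03, which this balanced design fixes in advance. Foxo1 and Trim63 missed the threshold with ordinary statistics alone, at adjusted p-values of 0.051 and 0.103. Over all 18193 genes the count was 937, against 206 with ordinary statistics and 359 on the arrays with more spike signal. It was 436, 555 and 555 without knockdown arrays 1, 2 and 3 and 542 without control array 1. Above the intensity filter fewer genes were tested, and 594 of 7315 passed. Probe sets below the offset, 55.1% to 58.2% on each array, limit what can be seen of dim genes such as Psmb9 and Psmb11.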
